A study of Mus musculus with 4 samples.

Results

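Calpains are cytosolic cysteine proteases that are switched on by calcium and cut their substrates at a limited number of sites. The 9 genes described here are the calpains Capn1, Capn2, Capn3, Capn5, Capn6, Capn7 and Capn10, the small subunit Capns1, and the inhibitor calpastatin, Cast. They were found by their symbols, 9 of 21881 in the deposited expression table, and the family was selected on measured values: its expression in these cells and the level of Capn6 in the libraries with NR6A1 were in view when it was chosen. Levels with and without NR6A1 are therefore given as a description. Of the 9 genes, 8 averaged 1 FPKM or more over the 4 libraries (fragments per kilobase of transcript, scaled to sequencing depth) and entered the fit over 11346 genes, and Capn3 was below that filter.

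The libraries came from immortalised clonal mesenchymal stem cell lines, fibroblast-type cells grown from the bone marrow of adult C57BL/6 mice. All carried the Dicer f/f genotype with Dicer intact (Dicer WT), and all had been infected with a pMMP-puro retrovirus that confers puromycin resistance. The virus was either the empty vector control or one that carries Flag-HA-NR6A1, a tagged form of the nuclear receptor NR6A1. Clone 6 and Clone 12 each gave 1 vector library and 1 NR6A1 library, so each group had 2 libraries (n = 2) and each line was 1 clone. Nothing in the labels describes repeat cultures, so the p-values measure only the spread between these 4 libraries.

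The classical calpains are heterodimers. The large subunit, CAPN1 in µ-calpain or CAPN2 in m-calpain, holds the protease core, and CAPNS1 is the small subunit that both need for stability. Calpastatin binds and blocks the dimer when calcium is present. In fibroblasts, calpains are known for cutting talin, spectrin and other adhesion and cytoskeletal proteins, and so for the turnover of focal adhesions in moving cells. CAPN6 belongs to the group of calpains without the calmodulin-like domain, is known from placenta and embryonic muscle, binds microtubules, and lacks the catalytic cysteine.

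The missing cysteine could be read from the coding sequences. The stretch around it is shown because it separates Capn6 from the other 6 calpains among the members. Each line gives 27 bases of coding sequence of a GENCODE transcript (GRCm38), 5′ to 3′, with the codon aligned to the catalytic cysteine codon of Capn2 in capitals. TGT and TGC encode cysteine and AAG encodes lysine.
Capn1: gcactgggggacTGTtggctcctggct
Capn2: gccctgggggacTGCtggctgctggct
Capn3: gatctaggggacTGCtggtttcttgca
Capn5: caggtgggcaacTGCtggtttgtggct
Capn6: agattggggaacAAGgcaatgatctct
Capn7: atagtatcagatTGTtcctttgtggca
Capn10: ctgctgggagatTGCtggttcctgtgt
Counted from the A of the start codon, the capitals stand at bases 313 to 315 of Capn2 and at bases 241 to 243 of both Capn5 and Capn6. The coding sequences ran from 640 codons in Capn5 to 821 in Capn3, and Capn6 had 641. The coding sequences were aligned by their translations, and no amino acid sequence is printed here.

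The number of reads behind the values was estimated from the step size of low values. It came to 24450000 for vector Clone 6, 22800000 for vector Clone 12, 21200000 for NR6A1 Clone 6 and 20650000 for NR6A1 Clone 12. At these depths 47.2 to 51.4% of low values fell within 0.1 of a whole read, where 20% would at a depth picked beforehand. The depths were fitted to low values of the same genes, so that share describes the fit and does not test it. Nr6a1 itself, the gene on the virus, was at 4.18 FPKM in Clone 6 and 2.80 FPKM in Clone 12 with vector and at 783 and 598 FPKM with the NR6A1 virus, in keeping with the labels (limma, 7.27 ± 0.07 log2 units, SE, adjusted p = 0.000488). Mesenchymal stem cell and fibroblast markers passed the filter for 11 of 12 genes, with summed levels of 4419 to 6037 FPKM. The sum rested mostly on Col1a1, Col1a2 and Vim, with means of 1046, 1244 and 2242 FPKM, while Nt5e averaged 2.81 FPKM. Thy1 was at 0.0297 FPKM in vector Clone 6 and listed at 0 in the other 3 libraries. Of 9 skeletal muscle markers only Acta1 passed the filter, and Myod1 and Myf5 were listed at 0 in all libraries. None of 6 endothelial and none of 6 trophoblast markers passed it, and Cd68 was the 1 of 8 haematopoietic markers that did. Adipocyte markers passed in 3 of 6 cases, and their sum was 366 FPKM in vector Clone 6, 211 in NR6A1 Clone 6, 124 in vector Clone 12 and 109 in NR6A1 Clone 12. A level in such a population cannot tell fewer expressing cells from less RNA per cell.

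The family spanned a wide range of levels. On the per-length FPKM scale the order of the means was Capns1, Capn2, Capn1, Cast, Capn7, Capn10, Capn6, Capn5 and Capn3. Capns1 stood at the 96.1th percentile of mean FPKM among tested genes and Capn2 at the 91.8th, followed by Capn1 at the 73.0th, Cast at the 70.2th, Capn7 at the 53.6th, Capn10 at the 35.2th, Capn6 at the 32.6th and Capn5 at the 7.03th. The ranges over the libraries overlapped for Capn1 and Cast, although Capn1 was the higher one in each library. Capn6 changed places with other members, lying above both Capn10 and Capn7 in NR6A1 Clone 12 and below Capn5 in vector Clone 6. The other neighbouring pairs did not overlap.

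**Figure D1:**
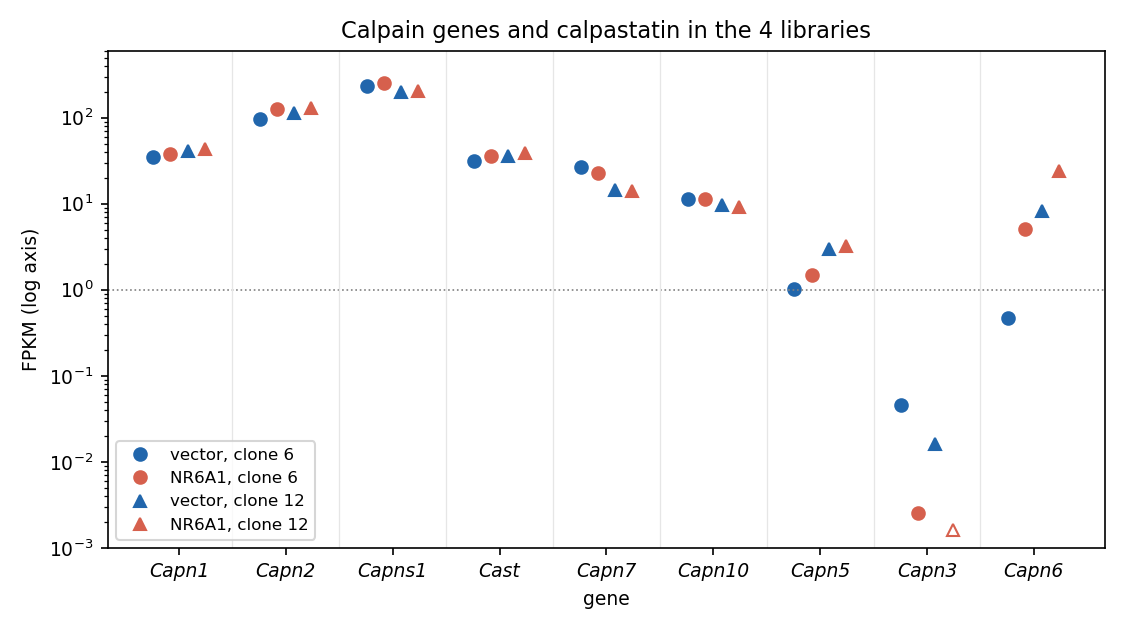
FPKM of the 9 genes in each of the 4 libraries on a logarithmic axis; each point is 1 library, coloured by virus and shaped by clone, the open triangle is the value of 0 for Capn3, drawn near the foot of the axis, and the dotted line marks 1 FPKM. Capns1 and Capn2 lie at the top in all libraries, Capn6 runs from 0.465 to 24.1 FPKM, and Capn3 lies at the bottom.

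Capn2, the large subunit of m-calpain, was at 96.9 FPKM in Clone 6 and 114 FPKM in Clone 12 with vector, and at 127 and 131 FPKM with NR6A1. Both NR6A1 libraries were above both vector libraries, and Capn2 was the only tested family member with no overlap between the viruses. The mean was 105.6 ± 12.3 FPKM with vector and 129 ± 2.65 FPKM with NR6A1 (SD, n = 2 each), and the paired difference on the log2(FPKM + 1) scale was 0.39 in Clone 6 and 0.20 in Clone 12. Among all tested genes, 9.68% had both NR6A1 libraries above both vector libraries and 10.7% had both below, and 11.5% showed a larger change in size than Capn2.

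Capn1, the large subunit of µ-calpain, was at 35.0 FPKM in Clone 6 and 41.2 FPKM in Clone 12 with vector, and at 37.5 and 42.8 FPKM with NR6A1. The 2 viruses overlapped, and the paired differences were 0.10 and 0.05. Capns1, the small subunit, was the most abundant transcript of the family at 234 and 199.5 FPKM with vector and 252 and 207 FPKM with NR6A1. Here too the viruses overlapped, and the higher value with each virus was that of Clone 6.

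Cast, the inhibitor, was at 31.1 FPKM in Clone 6 and 36.2 FPKM in Clone 12 with vector, and at 35.9 and 38.4 FPKM with NR6A1. Its paired differences were 0.20 and 0.08 log2 units, with the vector library of Clone 12 above the NR6A1 library of Clone 6. The annotation lists 8 coding transcripts for Cast, which the gene-level value does not separate, and exons of Cast overlap exons of Erap1 on the opposite strand.

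The balance of subunits and inhibitor followed from these levels. Capn1 and Capn2 together summed to 132 FPKM in Clone 6 and 155 FPKM in Clone 12 with vector, and to 165 and 174 FPKM with NR6A1. The ratio of Cast to that sum was 0.236 and 0.233 with vector and 0.218 and 0.221 with NR6A1, so it was lower in both NR6A1 libraries. Over the sum of all 6 members with a catalytic cysteine, Cast came to 0.181 in Clone 6 and 0.198 in Clone 12 with vector. With NR6A1 it was 0.179 and 0.192, so the clones and not the viruses were apart. That sum takes in calpains other than the classical Capn1 and Capn2 and leaves out Solh, described below. It is therefore no measure of inhibitor balance within the dimers. Capns1 came to 1.78 and 1.28 times the sum of Capn1 and Capn2 with vector, and to 1.53 and 1.19 times with NR6A1. Clone 6 was above Clone 12 with either virus. Capn2 over Capn1 was 2.77 in both vector libraries, 3.39 in NR6A1 Clone 6 and 3.06 in NR6A1 Clone 12. No test was run on these ratios of transcript levels.

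**Figure D2:**
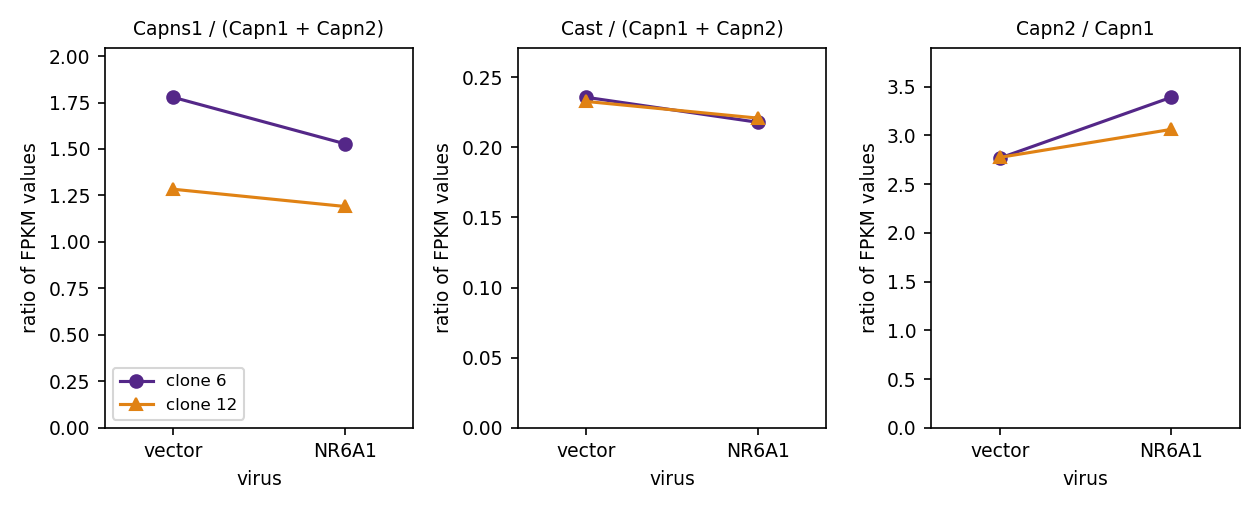
Ratios of FPKM values in each library: Capns1 over Capn1 plus Capn2, Cast over Capn1 plus Capn2, and Capn2 over Capn1; each point is 1 library and each line joins the vector and NR6A1 libraries of 1 clone. Capns1 over Capn1 plus Capn2 runs from 1.19 to 1.78 with Clone 6 above Clone 12, while Cast over the same sum stays between 0.218 and 0.236.

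Capn6 varied most. It was at 0.465 FPKM in vector Clone 6, 8.20 FPKM in vector Clone 12, 5.02 FPKM in NR6A1 Clone 6 and 24.1 FPKM in NR6A1 Clone 12, or about 38.0, 625, 355.5 and 1662 reads at the estimated depth. Within each clone the NR6A1 library was the higher one, by 10.8 times in Clone 6 and 2.94 times in Clone 12, yet the viruses overlapped because vector Clone 12 was above NR6A1 Clone 6. The mean was 4.33 ± 5.47 FPKM with vector and 14.6 ± 13.5 FPKM with NR6A1 (SD, n = 2 each). Exons of Capn6 overlap exons of Gm47298 on the same strand, a gene with no value of its own in the deposited data.

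On the log2(FPKM + 1) scale, which understates changes of low genes, the paired difference of Capn6 was 2.04 in Clone 6 and 1.45 in Clone 12. The limma estimate was 1.74 ± 0.18 (limma's SE, which draws on other genes and is not the spread of the paired differences). The estimate ranked 47 from the top among 11346 genes. It ranked 3 from the top once small RNA genes such as snoRNAs and microRNA precursors, whose FPKM rest on few bases, were set aside. Nr6a1 itself, carried on the virus, was among the genes above it, at 7.27 log2 units. At least 2-fold higher values in both clones were found for Capn6 and for 0.106% of all tested genes. The level of Capn6 with NR6A1 was in view when the family was chosen, so its rank and this share are a description. In vector Clone 6, Capn6 reached 0.480% of the level of Capn2, and in NR6A1 Clone 12 it reached 18.4%.

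Capn5, the closest relative of Capn6 among the members in domain layout and a calpain with the catalytic cysteine, was the lowest tested member. It was at 1.02 FPKM in Clone 6 and 2.96 FPKM in Clone 12 with vector, and at 1.47 and 3.24 FPKM with NR6A1. The clones were far apart and the viruses overlapped, with paired differences of 0.29 and 0.10.

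Capn7, a calpain with microtubule-interacting and trafficking repeats that binds ESCRT-III proteins, was at 27.0 FPKM in Clone 6 and 14.6 FPKM in Clone 12 with vector, and at 22.7 and 14.1 FPKM with NR6A1. Exons of Capn7 overlap exons of Sh3bp5 on the opposite strand. Capn10, a calpain studied in type 2 diabetes, was at 11.4 and 9.77 FPKM with vector and at 11.2 and 9.11 FPKM with NR6A1. These were the members with lower values in the NR6A1 library of each clone, by paired differences of −0.24 and −0.04 for Capn7 and of −0.02 and −0.09 for Capn10.

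Capn3, the calpain of skeletal muscle, was at 0.0459 FPKM in vector Clone 6, 0.0162 FPKM in vector Clone 12 and 0.00251 FPKM in NR6A1 Clone 6, and listed at 0 in NR6A1 Clone 12. At the estimated depth these are about 3.32, 1.09, 0.157 and 0 reads, too few to order. Exons of Capn3 overlap exons of Ganc on the same strand, and the strand setting of the counting is not given in the sources used here. Exons of Capn1, Capn2, Capn10 and Capns1 overlap exons of other genes on the opposite strand.

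Read together against the vector, 6 of the 8 tested members were higher with NR6A1 in both clones and 2 were lower in both, where 28.9% of all tested genes were higher in both and 29.4% were lower in both. The median difference of the 8 was 0.11 log2 units and 0.08 without Capn6, beside 0.00098 over all tested genes. Differences under 0.3 log2 units either way in both clones were found for 6 members, all but Capn2 and Capn6, and for 75.4% of all tested genes. The difference was larger in size in Clone 6 than in Clone 12 for 7 members, Capn10 being the exception, and for 61.2% of all tested genes. None of the 8 passed limma's adjusted p of 0.05, and Capn2 and Capn6 had an unadjusted p under 0.05, where 0.0353% of all genes passed the adjusted threshold and 962 genes had an unadjusted p under 0.05. Capn6 passed only in a fit without the small RNA genes (limma, adjusted p = 0.0304, against 0.169 in the main fit and 0.0702 with a robust prior). Its level with NR6A1 was in view when the family was chosen, so that call is a description and not a test.

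**Figure D3:**
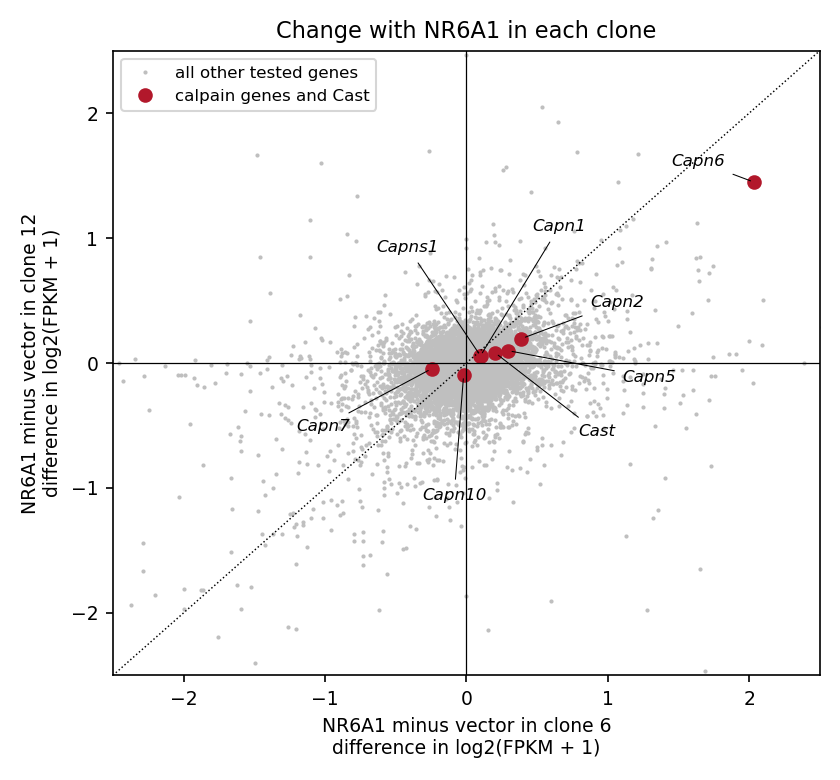
Difference between NR6A1 and vector in log2(FPKM + 1) units, Clone 6 on the horizontal and Clone 12 on the vertical axis; grey points are all tested genes, of which 116 lie outside the axes, labelled points are the 8 tested calpain genes, and the dotted line marks equal differences. Capn6 lies far up and to the right at 2.04 and 1.45, Capn2 at 0.39 and 0.20, and the others near the origin.

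The clones themselves differed in this family. Capn6 and Capn5 were higher in Clone 12, and Capn7 was lower there, and all 3 passed the test across all genes. Such a difference was called for 21.9% of all tested genes, 11.5% higher and 10.5% lower in Clone 12, so 3 of 8 members is to be read against a background in which many genes differed between these lines. The comparison shares its libraries with the one on NR6A1, and the members were chosen with earlier results known.

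Capn6 was 17.6 times as high in Clone 12 as in Clone 6 with vector and 4.80 times as high with NR6A1. On the log2(FPKM + 1) scale the clone difference was 2.65 with vector and 2.06 with NR6A1, and limma gave 2.36 ± 0.18 (SE) with an adjusted p of 0.0144. A larger clone difference in size was found for 1.73% of tested genes. The call was lost when any 1 library was left out, in fits that also dropped the virus term. The direction stayed, with 1.34 to 3.37 log2 units.

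Capn5 was 2.91 times as high in Clone 12 with vector and 2.20 times with NR6A1, and limma gave 0.87 ± 0.16 log2 units (SE, adjusted p = 0.0363). Capn7 was 1.85 times as high in Clone 6 with vector and 1.61 times with NR6A1, and limma gave −0.75 ± 0.09 for Clone 12 against Clone 6 (SE, adjusted p = 0.0227). With 1 library left out, and so without the virus term, the difference ran from 0.73 to 1.02 log2 units for Capn5. For Capn7 it ran from −0.87 to −0.63 log2 units. Capn5 was not called in any of these fits, and Capn7 only in the one without the NR6A1 library of Clone 6. With no filter on low values none of the 3 was called (limma, adjusted p from 0.0798 for Capn6 to 0.0866 for Capn5), nor was any other gene.

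The other 5 tested members did not pass. Clone 12 minus Clone 6 was 0.21 ± 0.07 log2 units for Capn1, 0.14 ± 0.08 for Capn2, 0.15 ± 0.08 for Cast, −0.24 ± 0.08 for Capn10 and −0.26 ± 0.07 for Capns1 (SE), with limma's adjusted p between 0.0765 for Capns1 and 0.288 for Capn2. Both Clone 12 libraries were above both Clone 6 libraries for 4 members and below for 3, against 37.7% and 30.3% of all tested genes, and Capn2 was the member whose clones overlapped. The median clone difference in size was 0.25 log2 units for the 8 members and 0.22 for all tested genes. Other genes moved with the clone as well. Of the 11 tested mesenchymal and fibroblast markers, Cd44 and Ly6a were called higher in Clone 12 and Col1a1, Col3a1 and Pdgfra lower. Ly6a was at 19.0 and 9.31 FPKM in Clone 6 against 317 and 125 FPKM in Clone 12, with vector and NR6A1 in turn, and the collagen Col1a1 was at 1547 and 1422 FPKM against 522 and 693 FPKM. Of the adipocyte markers, 2 of the 3 tested, Fabp4 and Cebpa, were called lower in Clone 12. Their part in the calpain differences was not tested.

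**Figure D4:**
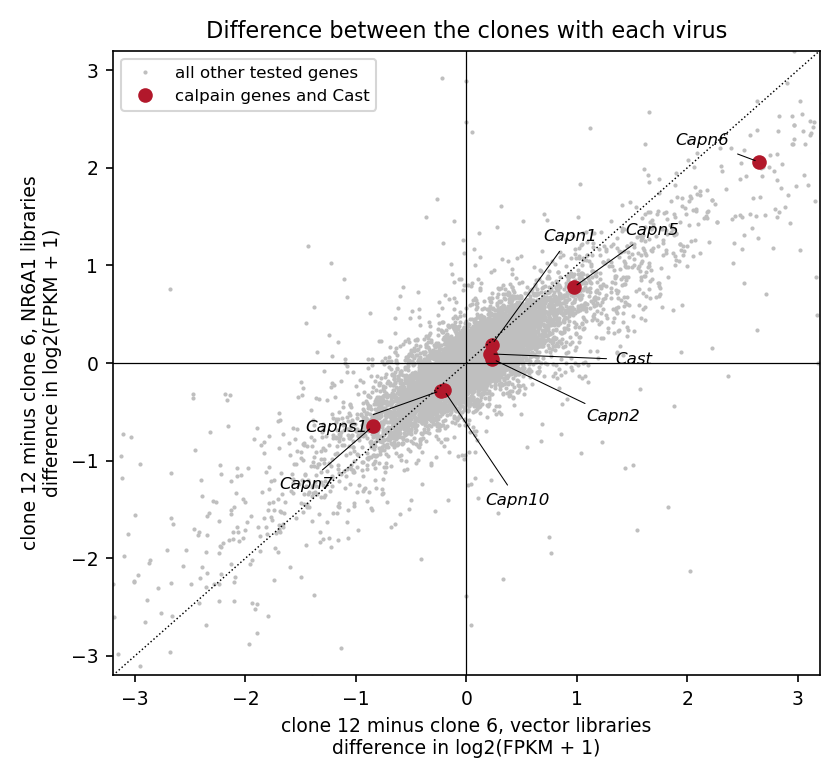
Clone 12 minus Clone 6 in log2(FPKM + 1) units, with vector on the horizontal and with NR6A1 on the vertical axis; grey points are all tested genes, of which 181 lie outside the axes, labelled points are the 8 tested calpain genes, and the dotted line marks equal differences. Capn6 lies at 2.65 and 2.06, Capn5 lies above 0 and Capn7 below 0 with both viruses.

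The make-up of the catalytic members followed the same lines. Shares were taken of the summed FPKM of the 6 members with a catalytic cysteine, a sum that leaves out Solh, described below. Capn2 made up 56.5% in vector Clone 6, 62.5% in vector Clone 12, 63.6% in NR6A1 Clone 6 and 65.4% in NR6A1 Clone 12. Capn7 made up 15.8% and 11.3% in Clone 6, with vector and NR6A1, and 7.97% and 7.04% in Clone 12. Capn1 stayed between 18.7% and 22.5%, and Capn5 did not exceed 1.62%.

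Of 7 other calpain genes in the table, 1 passed the filter. Solh, listed today as Capn15, a large zinc-finger calpain, was at 11.4 FPKM in Clone 6 and 12.6 FPKM in Clone 12 with vector and at 14.0 and 14.5 FPKM with NR6A1. Both NR6A1 libraries were the higher ones, by 0.27 and 0.19 log2 units within the clones, which limma did not call. Capn8, Capn9, Capn11, Capn12, Capn13 and the second small subunit Capns2 stayed at or below 0.191 FPKM in every library. Capn9, for example, was between 0.0193 and 0.0228 FPKM, about 1 read a library.

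Genes whose pattern over the 4 libraries was nearest to that of Capn6 were taken by the Euclidean distance over 3 differences: NR6A1 minus vector in each clone and Clone 12 minus Clone 6 with vector. Among 9293 genes averaging 5 FPKM or more the nearest were Mir7-1 at 0.968 log2 units, Adam8 at 1.01, Snora78 at 1.01, Pknox2 at 1.02 and Ntn1 at 1.24. Mir7-1 and Snora78 are small RNA genes. Adam8, a membrane metalloprotease, was at 0.826 FPKM in Clone 6 and 9.44 FPKM in Clone 12 with vector and at 4.97 and 13.8 FPKM with NR6A1. Pknox2, a homeodomain transcription factor, was at 2.16 and 11.2 FPKM with vector and at 8.73 and 20.8 FPKM with NR6A1. Ntn1, the guidance cue netrin-1, was at 0.897 and 5.89 FPKM with vector and at 3.71 and 11.3 FPKM with NR6A1.

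Capn6 lies on the X chromosome, and 3 of its 6 nearest protein-coding neighbours in the table, by RefSeq's gene order, passed the filter. Chrdl1, a BMP antagonist, was at 6.72 FPKM in Clone 6 and 0.472 FPKM in Clone 12 with vector and at 4.02 and 0.957 FPKM with NR6A1, higher in Clone 6 where Capn6 was low (limma, clone difference, adjusted p = 0.031). Pak3, a p21-activated kinase, was at 6.81 and 8.31 FPKM with vector and at 2.88 and 6.51 FPKM with NR6A1, lower with NR6A1 in both clones. Alg13, a glycosyltransferase subunit, was at 13.6 and 16.0 FPKM with vector and at 11.6 and 14.2 FPKM with NR6A1. Rgag1, Dcx and Trpc5 were at or below 0.0345 FPKM in every library.

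Nuclear receptors of the NR6A1 type are known to bind direct repeats of AGGTCA with no spacer, and the promoter of Capn6 is printed because Capn6 was the member with the largest difference. The window runs from 250 bases before to 50 bases after the start site in RefSeq (GRCm38.p6, chrX:143827363-143827662, minus strand), 5′ to 3′ along the gene, and has 54.3% G and C.
Capn6 promoter: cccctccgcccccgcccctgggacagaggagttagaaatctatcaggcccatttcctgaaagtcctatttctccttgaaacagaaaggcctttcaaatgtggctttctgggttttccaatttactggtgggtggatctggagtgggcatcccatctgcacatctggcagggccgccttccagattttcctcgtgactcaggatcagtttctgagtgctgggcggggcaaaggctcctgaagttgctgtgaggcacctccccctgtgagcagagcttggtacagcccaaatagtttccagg
Neither AGGTCA nor the extended site TCAAGGTCA is in this window on either strand, so it holds no capitals. A search of the 13 RefSeq windows of 8 members (Capn5 had none) found AGGTCA in 1, a window of Cast at chr13:74807911-74808210 (minus strand), starting 167 bases before the start site on the opposite strand, against 16.3% of 32851 windows of all genes. That window is shown as the 1 member window with a match, which is in capitals as its complement TGACCT.
Cast promoter: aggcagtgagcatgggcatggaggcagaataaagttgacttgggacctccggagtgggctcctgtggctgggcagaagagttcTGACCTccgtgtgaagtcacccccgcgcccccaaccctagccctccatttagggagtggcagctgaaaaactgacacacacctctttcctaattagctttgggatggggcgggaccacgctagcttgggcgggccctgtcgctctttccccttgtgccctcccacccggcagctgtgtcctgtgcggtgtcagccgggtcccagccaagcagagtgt
TCAAGGTCA was in 0 of the 13 windows and in 0.423% of all, and the direct repeat of AGGTCA with no spacer was in 0 of the 13 and in 0.00609% of all. TCAAGGTCA and the direct repeat both contain AGGTCA. A match or its lack describes these windows only.

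Genes of adhesion and the cytoskeleton listed as calpain substrates numbered 24, of which 22 were tested. Cleavage of their products was not measured. For this and the lists that follow, the counts stand beside 28.9% of all tested genes higher in both clones, 29.4% lower in both, a median of 0.00098 log2 units, and 962 of 11346 genes with an unadjusted p under 0.05. With NR6A1, 14 of the listed genes were higher in both clones and 2 were lower in both, with a median of 0.09 log2 units. Limma called none, with 5 at an unadjusted p under 0.05 (Flna, Flnc, Spna2, Actn1 and Mtap1b, each with a positive estimate). Vim, the intermediate filament vimentin, was at 1964 FPKM in Clone 6 and 2211 FPKM in Clone 12 with vector and at 2404 and 2388 FPKM with NR6A1. Itgb1, integrin β1, was at 326 and 277 FPKM with vector and at 313 FPKM in both NR6A1 libraries. Src, the tyrosine kinase, was at 13.4 and 21.3 FPKM with vector and at 23.1 and 23.4 FPKM with NR6A1, so its NR6A1 libraries were both higher. Between the clones limma called 5 genes of the list higher in Clone 12 (Spnb2, Pxn, Ezr, Rhoa and Mtap1b) and 3 lower (Tln2, Actn4 and Des). Over all tested genes 11.5% were called higher and 10.5% lower.

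The microtubule and small GTPase genes linked with CAPN6 numbered 17, all tested. With NR6A1, 7 were higher in both clones, 2 were lower in both, and limma called none, with 3 at an unadjusted p under 0.05 (Mtap1b, Mtap4 and Mtap6). The median was 0.11, and it ran from −0.03 to 0.22 with 1 library left out. The tubulins Tuba1b and Tubb5 were abundant, at 989 to 1163 FPKM and at 686 to 867 FPKM over the libraries. Mtap1b, the microtubule-associated protein 1B, was at 5.85 FPKM in Clone 6 and 13.8 FPKM in Clone 12 with vector and at 9.38 and 15.7 FPKM with NR6A1. It was higher in Clone 12, as was Capn6, and it was 1 of 6 genes of the list called higher there, with 0 called lower, against 11.5% of all tested genes higher and 10.5% lower. Arhgef2, encoding GEF-H1, a small GTPase activator held on microtubules, was another of the 6, at 59.6 and 63.0 FPKM in Clone 6 and 106 and 100.4 FPKM in Clone 12, with vector and NR6A1 in turn. It was picked after its values were seen.

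Of 4 penta-EF-hand genes outside the calpains, which share the calcium-binding fold of the calpain small subunit, 3 were tested and limma called none with NR6A1, with 0 at an unadjusted p under 0.05 and a median of 0.07. Sri, sorcin, was at 55.3 and 67.6 FPKM with vector and at 66.0 and 71.0 FPKM with NR6A1, and Pdcd6, encoding ALG-2, was at 61.2 to 68.3 FPKM. Pef1, peflin, was called higher in Clone 12 (limma, 0.66 log2 units, adjusted p = 0.0208).

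Other intracellular proteases were set beside the calpains. Of 15 lysosomal proteases and cystatins, 12 were tested. With NR6A1, 5 were higher in both clones and 3 lower, and the median was 0.11. Limma called none, with 3 at an unadjusted p under 0.05 (Ctsh, Ctsl and Cst3). Cst3, the secreted inhibitor cystatin C, was at 462 and 394 FPKM with vector and at 385 and 340.2 FPKM with NR6A1, and Cstb, the cytosolic cystatin B, was at 304 to 369 FPKM. Ctsh, the protease cathepsin H, was at 20.2 FPKM in Clone 6 and 3.94 FPKM in Clone 12 with vector and at 14.6 and 2.29 FPKM with NR6A1, and was called lower in Clone 12 (limma, adjusted p = 0.00827), while Ctsc and Ctsl were called higher there.

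All 13 genes of a list of caspases and their inhibitors were tested; with NR6A1, 2 were higher in both clones and 4 lower, the median was −0.02, and limma called none, with 0 at an unadjusted p under 0.05. Birc5, survivin, was the most abundant at 175 to 190.5 FPKM. Diablo, which relieves caspases of their inhibitors, was at 34.0 FPKM in Clone 6 and 34.7 FPKM in Clone 12 with vector and at 34.5 and 33.4 FPKM with NR6A1. Casp1, the inflammatory caspase, was at 5.85 and 7.49 FPKM with vector and at 4.18 and 6.64 FPKM with NR6A1. Between the clones, 4 were called higher in Clone 12 (Casp4, Casp12, Xiap and Birc3) and 0 lower, against 11.5% of all tested genes higher and 10.5% lower. Genes listed by name beside such counts were picked after their values were seen.

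Genes of calcium entry, stores and calmodulin numbered 24, with 23 tested. With NR6A1, 9 were higher in both clones and 8 lower, the median was 0.0066, and limma called none, with 0 at an unadjusted p under 0.05. Calr, the calcium buffer calreticulin, was at 1107 FPKM in Clone 6 and 764 FPKM in Clone 12 with vector and at 1109 and 876 FPKM with NR6A1. Calm2, which encodes calmodulin, was at 561 and 541 FPKM with vector and at 480.5 and 477 FPKM with NR6A1, both lower. Cacna1c, an L-type calcium channel subunit, was at 1.06 and 0.458 FPKM with vector and at 2.60 and 0.357 FPKM with NR6A1, so the clones went opposite ways. Between the clones, 5 were called lower in Clone 12 (Orai2, Trpv4, Calm3, Calr and Ppp3cb) and 0 higher, against 10.5% of all tested genes lower and 11.5% higher.

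**Figure D5:**
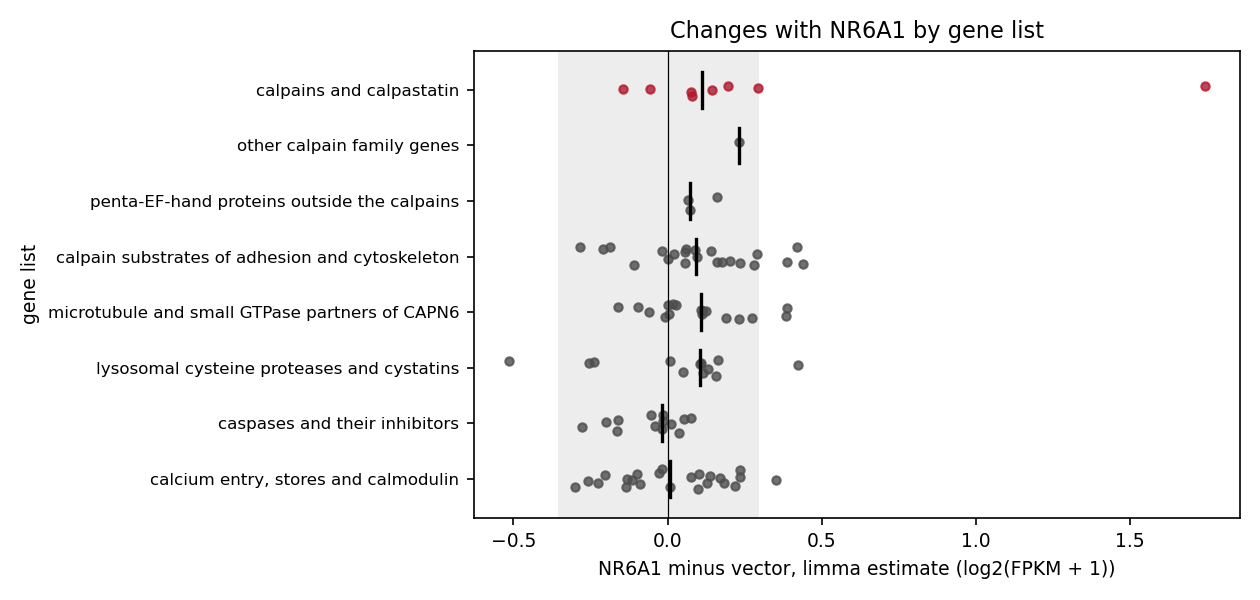
Difference between NR6A1 and vector in log2(FPKM + 1) units for each tested gene of the calpain members and of the 7 other gene lists, with 1 point a gene and a bar at each list's median; the grey band spans −0.35 to 0.29, the 5th to the 95th percentile of all tested genes. Capn6 lies far outside the band at 1.74, Capn2 at its edge at 0.29, and the list medians lie within it.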

How the data were processed

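PolyA RNA of 4 cell lines was sequenced on an Illumina instrument. Reads were aligned to mm9 with TopHat 1.2.0 and quantified with Cufflinks 1.0.3, per the submitters' processing notes, and the authors deposited 1 FPKM value per gene symbol and library. The sources used here do not give the strand setting or the annotation. Depth was inferred from the steps of low FPKM values of 1818 genes with 1 transcript. It is an estimate and is used for read numbers only.

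FPKM are not counts, so limma 3.58.1 (R 4.3.3) with a variance trend was fitted to log2(FPKM + 1) for genes averaging 1 FPKM or more, with virus and clone as terms and Benjamini-Hochberg adjustment over all 11346 genes (threshold 0.05). With 4 libraries this left 1 residual degree of freedom, to which limma added 2.90 prior degrees. Each SE is limma's and draws on other genes through this prior, so it is not the spread of the differences themselves. The clone term is the replicate block: the treatment protocol in the labels ties both viruses to each clone, and the difference between clones correlated across genes between the viruses (r = 0.628, and 0.873 without small RNA genes). Genes named in the lists were the 2 most abundant tested genes of each list and the tested gene with the largest change, and beside Capn6 its 5 nearest genes in pattern and its neighbours on the chromosome. The members and lists were chosen with earlier results of these data known. Of 161 list entries, 153 were found as given, 7 by an older symbol and 1 was not matched; some genes are not reported here. Motifs were searched in RefSeq promoter windows (GRCm38.p6). Coding sequences are from GENCODE (GRCm38) and were aligned by their translations. No coordinate was moved between builds.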

Additional observations from a re-analysis of the deposited data

Results flagged for a closer look

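None of the 8 tested calpain genes was singled out, and no group had enough libraries for a check on outlying samples. Only the genes named by rule and the medians of the lists of related genes were screened, not the other genes of those lists. Given here are those for which NR6A1 minus vector had opposite signs in Clone 6 and Clone 12, on the log2(FPKM + 1) scale. With 1 library for each clone and virus the difference between the clones was not tested. Chrdl1, a neighbour of Capn6 on the chromosome, had −0.6224 in Clone 6 and 0.4114 in Clone 12. Cacna1c had 0.8036 and −0.1027, and Tuba1b had 0.2336 and −0.01241. Diablo had 0.01944 and −0.05026, and Birc5 had 0.04248 and −0.07973. Itgb1 had −0.05768 and 0.1781, and Pdcd6 had 0.1362 and −0.003112. The median of the lysosomal proteases and cystatins was 0.15 in Clone 6 and −0.02108 in Clone 12. That of the caspases and their inhibitors was 0.01549 and −0.07973, and that of the calcium genes was 0.02817 and −0.003745.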

How the results depend on the processing

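The number of genes that limma called with NR6A1 was 4 of 11346 (3 higher, 1 lower). It was 7 with a pseudocount of 5, 2 with no filter, 38 with a robust prior, 51 without small RNA genes, 25 at a false discovery rate of 0.1, and 0 to 0 with 1 library left out, where the clone term is lost and 96 to 286 genes had an unadjusted p under 0.05. With no replicate block it stayed at 4. Between the clones limma called 2490 genes (1302 higher and 1188 lower in Clone 12). It called 0 with no filter, where 5360 had an unadjusted p under 0.05, 1581 with no variance trend, 4163 at a false discovery rate of 0.1, 1993 with no replicate block and 41 to 889 with 1 library left out. The cause of these shifts was not tested. In the 87 values of the members' NR6A1 change with all 4 libraries no sign changed; Capn6 moved from 1.74 to 2.36 with a pseudocount of 0.1 and to 1.01 with one of 5. With 1 library left out, and so with no pairing by clone, 10 of 32 signs changed, and Capn6 ran from 0.42 to 3.07. In as many values of the members' clone difference no sign changed, and with 1 library left out 1 of 32 did (Capn2, −0.06). Capn5, Capn6 and Capn7 were not called with no filter (limma, adjusted p = 0.0866, 0.0798 and 0.0804). Capn6 was not called between the clones without the virus term (limma, adjusted p = 0.129), and Capns1 was called at a false discovery rate of 0.1. Leaving out the virus term here, or the clone block in the NR6A1 contrast, changed no other call among the members. Cast over the sum of all catalytic members had means of 0.190 with vector and 0.185 with NR6A1. With 2 libraries a group, leaving 1 out of a ratio only returns the value of the other library, so it cannot check stability. Those values were 1.28 to 1.78 with vector and 1.19 to 1.53 with NR6A1 for Capns1 over Capn1 plus Capn2. For Cast over the same sum they were 0.233 to 0.236 and 0.218 to 0.221. For Capn2 over Capn1 they were 2.77 in both vector libraries and 3.06 to 3.39 with NR6A1. Capn6 was called with NR6A1 only without small RNA genes (limma, adjusted p = 0.0304), in a contrast that was in view when the family was chosen. No gene of the 7 lists of related genes was called in any setting. With 1 library left out, 5 of 28 values of these lists' medians changed sign and 10 moved by 0.1 log2 units or more. Depth limits Capn3 and the rarer calpains, which rest on a few reads or fewer.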
